A study of Mus musculus with 123 samples.

Results

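The mitochondrial carriers of the solute carrier 25 (Slc25) family were followed in the liver of mice on 2 diets, under 3 photoperiods and at 6 times of day. They were taken as the genes whose symbol starts with Slc25a, leaving out Slc25a20 and Slc25a15, which gave 39 carriers of 15398 genes in the deposited table. All 39 had at least 1 CPM in at least 3 libraries and so belonged to the 14397 genes tested. CPM are reads of a gene relative to the size of its library, as scaled in the deposited table. Slc25a2, Slc25a18, Slc25a31, Slc25a41, Slc25a43, Slc25a52 and Slc25a54 were not analysed here.

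The mice received a high fat diet (HFD, 61 libraries) or a low fat diet (LFD, 62 libraries) and lived in what the labels call Equal, Long or Short light. Livers were taken at zeitgeber times ZT0, ZT4, ZT8, ZT12, ZT16 and ZT20, which makes 36 groups, 21 of 3 libraries and 15 of 4. Each of the 6 combinations of diet and photoperiod, called arms, had 20 or 21 libraries. Nothing in the labels states the strain, sex, age or genotype, the length of feeding, the hours of light or the event from which zeitgeber time was counted. Nor do they state whether libraries of a group came from separate animals. The p-values weigh differences against the spread between these libraries and may not carry over to animals.

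Carriers of this family are small proteins of the inner mitochondrial membrane, built from repeats of a shared module, that move metabolites, nucleotides and cofactors between the cytosol and the matrix. They connect pathways that the liver splits between both compartments, among them the urea cycle, gluconeogenesis, fatty acid synthesis, which uses citrate exported by Slc25a1, and the shuttles that carry reducing equivalents. Slc25a48 belongs to the branch of the family that resembles the carnitine carrier, with Slc25a29, Slc25a45 and Slc25a47, and has been linked to the entry of choline into mitochondria.

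The libraries held 13.97 M to 39.09 M reads. The mean log2 CPM of 8 hepatocyte markers was between 11.62 and 12.51 in every library. Skeletal muscle or pancreas acinar markers had a mean log2 CPM above 4 in 18 libraries, 5 of HFD and 13 of LFD, 8 of them rich in muscle markers and 12 in pancreas markers. Over all libraries the mean of the 12 muscle markers ran from -3.24 to 5.81 in HFD and from -3.20 to 5.95 in LFD, and that of the 12 measured pancreas markers from -2.82 to 5.31 in HFD and from -2.73 to 8.21 in LFD. Macrophage and Kupffer cell markers averaged 4.77 log2 CPM (SD 0.39) in HFD and 4.55 (SD 0.39) in LFD, and erythroid markers 3.15 (SD 0.44) and 3.34 (SD 0.39). The part of these other cell types in the results below was not tested beyond the carriers named with them, and in whole tissue fewer cells of a type and less RNA per cell cannot be told apart.

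The upstream sequences of 5 carriers are shown because the results turn on their daily pattern or diet difference: Slc25a48, its relative Slc25a47, Slc25a11, which was rhythmic in every arm, and Slc25a1 and Slc25a13, which moved with diet in opposite directions and both hold a clock-type E-box. Each is the 250 bases before the RefSeq start site, on build GRCm38.p6 and in the direction of the gene, with capitals for matches to CACGTG (E-box), CACGTT, TTANGTAA (D-box) or AGGTCA (nuclear receptor motif) on either strand. The windows are chr13:56438105-56438354 (plus strand), chr12:108850879-108851128 (plus), chr11:70647040-70647289 (minus), chr16:17928220-17928469 (minus) and chr6:6217174-6217423 (minus).
Slc25a48 promoter: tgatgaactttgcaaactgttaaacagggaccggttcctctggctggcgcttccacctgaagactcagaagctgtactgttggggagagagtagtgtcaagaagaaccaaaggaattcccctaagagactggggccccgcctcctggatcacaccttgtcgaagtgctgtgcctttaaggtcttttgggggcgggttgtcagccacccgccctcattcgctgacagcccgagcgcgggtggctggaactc
Slc25a47 promoter: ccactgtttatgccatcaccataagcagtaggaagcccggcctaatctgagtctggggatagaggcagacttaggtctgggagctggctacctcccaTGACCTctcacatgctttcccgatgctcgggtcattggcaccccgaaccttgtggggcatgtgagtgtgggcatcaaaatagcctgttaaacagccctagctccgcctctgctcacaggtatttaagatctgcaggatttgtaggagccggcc
Slc25a11 promoter: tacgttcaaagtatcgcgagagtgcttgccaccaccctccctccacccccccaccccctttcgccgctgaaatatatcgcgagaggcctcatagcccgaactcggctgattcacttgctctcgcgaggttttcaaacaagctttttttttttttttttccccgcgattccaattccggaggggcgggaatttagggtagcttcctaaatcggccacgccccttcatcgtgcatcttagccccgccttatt
Slc25a1 promoter: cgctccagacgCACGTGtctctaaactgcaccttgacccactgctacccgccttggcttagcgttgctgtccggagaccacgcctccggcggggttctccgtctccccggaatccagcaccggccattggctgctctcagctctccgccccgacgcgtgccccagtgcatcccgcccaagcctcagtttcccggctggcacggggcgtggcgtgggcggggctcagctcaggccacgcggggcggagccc
Slc25a13 promoter: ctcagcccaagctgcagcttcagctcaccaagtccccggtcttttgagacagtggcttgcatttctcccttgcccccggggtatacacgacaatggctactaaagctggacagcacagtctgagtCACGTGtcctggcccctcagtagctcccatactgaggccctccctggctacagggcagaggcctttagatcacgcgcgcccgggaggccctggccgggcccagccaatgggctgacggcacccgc
None of these 4 motifs was found in the windows of Slc25a48 and Slc25a11, 1 AGGTCA read on the reverse strand was found in that of Slc25a47, and 1 E-box each in those of Slc25a1 and Slc25a13. RefSeq windows were found for 30 of the 39 carriers, with 39 windows in all because some genes have several starts. CACGTG stood in 6 of the 39 carrier windows (15.4%) and in 6.02% of all 32851 windows, CACGTT in 2 against 3.85% of all, TTANGTAA in 1 against 2.06%, and AGGTCA in 4 (10.3%) against 14.02%. The 5 genes with CACGTG were Slc25a1, Slc25a13, Slc25a14, Slc25a33 and Slc25a36. Slc25a14 gave 2 of the 6 windows, which overlap and hold the same site, so that windows are not independent units. These are matches of letters and were not tested as binding sites. The GENCODE model of Slc25a47 (chr12:108836046-108856815) begins upstream of its RefSeq window, next to the start of Slc25a29 (chr12:108825873-108835883), which is read in the opposite direction. The model of Slc25a11 (chr11:70644196-70647479, minus strand) also begins upstream of its RefSeq window, which lies wholly within that model.

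Levels were compared between carriers per kilobase of exon. The length is that of all annotated exons of a gene, used in liver or not, so that every rank below depends on the annotation. Slc25a3 had 295 CPM over 5.55 kb and Slc25a5 330 CPM over 1.646 kb, for example. The 2 highest per kb were Slc25a5, the main ADP/ATP translocase of liver, at 200.8 ± 23.02 CPM per kb (SD over all libraries), and Slc25a47, a carrier found mostly in liver, at 199 ± 69.3. The spread of Slc25a47 was the wider one, and the means of both differed by less than either SD. Slc25a39, a glutathione carrier, followed at 131.5 ± 22.05, then the citrate carrier Slc25a1 at 101.97 ± 23.71, the aspartate/glutamate carrier citrin (Slc25a13) at 70.7 ± 11.1 and the ATP-Mg/phosphate carrier Slc25a23 at 61.4 ± 8.14. Each of these neighbours lay within the sum of both SDs of the next. The family covered a wide range, down to Slc25a36 (0.406 ± 0.0806), a pyrimidine nucleotide carrier, Slc25a27 (0.374 ± 0.111), which resembles the uncoupling proteins, and Slc25a53 (0.231 ± 0.0554), which has no known substrate.

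**Figure D1:**
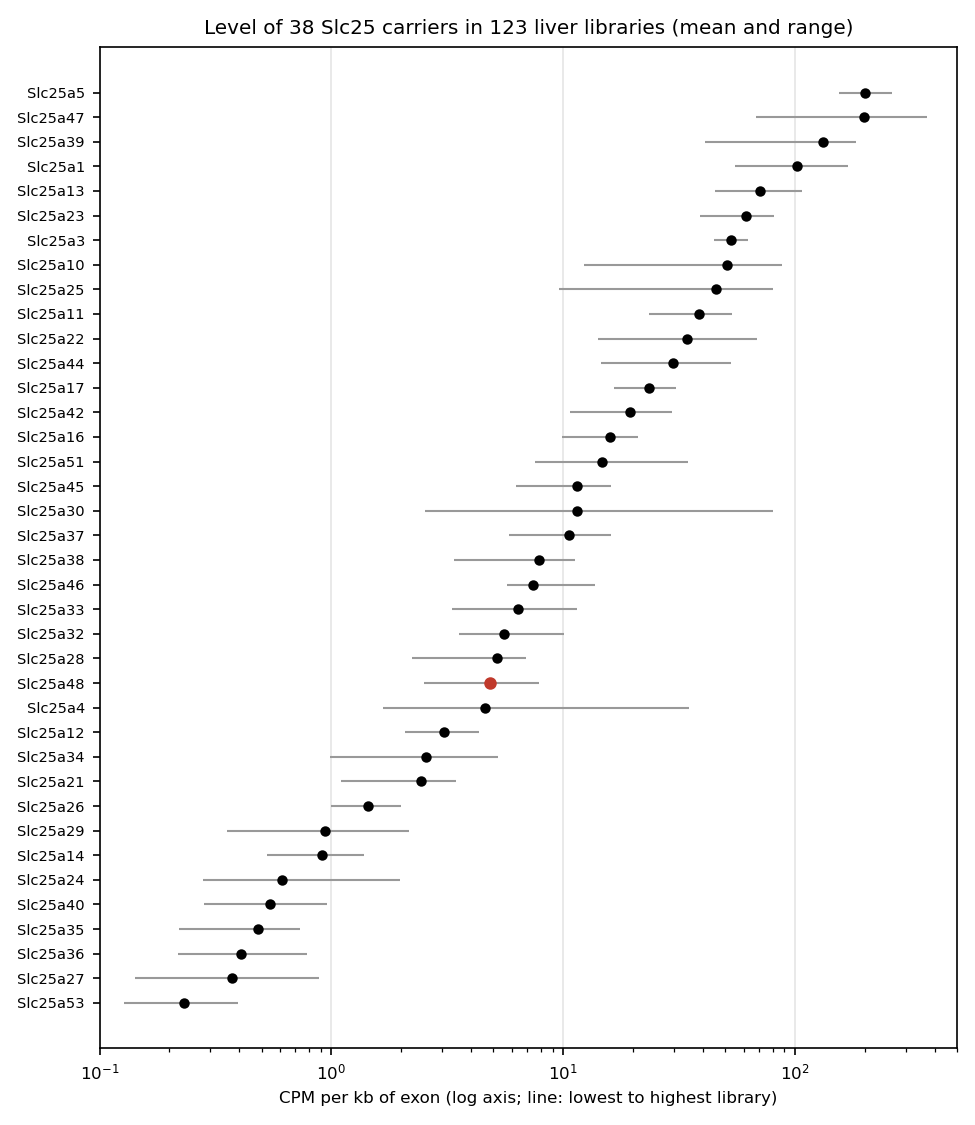
Mean level of 38 carriers over all libraries, in CPM per kb of exon on a log axis (point), with a line from the lowest to the highest library and Slc25a48 in red. Slc25a5 (200.8) and Slc25a47 (199) lead, Slc25a48 (4.83) stands 25th, and Slc25a4 and Slc25a30 have long lines for their level.

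Slc25a48 (ENSMUSG00000021509, chr13:56438355-56474239, plus strand) stood 25th of the 39, at 4.83 ± 1.12 CPM per kb. Its neighbours Slc25a28 (5.18 ± 0.689) and Slc25a4 (4.58 ± 5.02) were within its spread. In its own branch it was lower than Slc25a47 and Slc25a45 (11.5 ± 2.06) and higher than Slc25a29 (0.938 ± 0.344), and none of these 3 intervals of mean and SD touched its own. In log2 CPM, Slc25a48 ran from 3.08 to 4.73 over all libraries with a median of 4.00.

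Diet moved carriers in both directions. Between HFD and LFD, 15 of the 39 passed the test (limma, Benjamini-Hochberg adjusted p under 0.05), 10 higher and 5 lower in HFD, where 25.5% of all genes tested passed, 12.9% higher and 12.6% lower. The median log2 difference was 0.04 over the 39 carriers and -0.0038 over all genes. Leaving out the 18 marker-rich libraries gave 14, 9 higher and 5 lower, and without replicate 1 of every group it was 8, of which 7 were higher. The 5 carriers Slc25a10, Slc25a12, Slc25a21, Slc25a34 and Slc25a47 passed in each of the 10 alternative settings, and each of the other 10 lost its call in at least 1 of them.

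Counts within roles, here and below, stand beside the same shares of all genes tested, 12.9% higher and 12.6% lower. Among the carriers of citrate, dicarboxylates and oxoglutarate, 2 rose and 2 fell in HFD. Slc25a10, which exchanges malate and succinate for phosphate, ran from 5.41 to 8.24 log2 CPM with a median of 7.58 in HFD and from 6.34 to 8.05 with a median of 7.29 in LFD. The single libraries overlapped widely, but the HFD mean was the higher one in 18 of 18 pairs of groups matched for photoperiod and time. Its log2 difference was 0.29 (SE 0.073, limma adjusted p 0.00126), a fold of 1.22. Slc25a21, a carrier of oxoadipate and oxoglutarate that serves lysine and tryptophan breakdown, had the smallest adjusted p of the family. Its values had a median of 3.69 log2 CPM in HFD (2.87 to 4.07) and 3.45 in LFD (2.42 to 4.01). The difference of 0.25 (SE 0.040, limma adjusted p 6.29e-07) was seen in 17 of 18 matched pairs.

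The citrate carrier Slc25a1, which supplies cytosolic acetyl-CoA for lipid synthesis, fell in HFD. Its values ran from 6.89 to 8.46 log2 CPM with a median of 7.66 in HFD and from 6.90 to 8.52 with a median of 7.87 in LFD. HFD was the lower one in 17 of 18 matched pairs, with a log2 difference of -0.20 (SE 0.052, limma adjusted p 0.00172). Without replicate 1 it was -0.12 and did not pass (adjusted p 0.174). Slc25a11, the oxoglutarate/malate exchanger of the malate-aspartate shuttle, fell, with a log2 difference of -0.07 (adjusted p 0.0470 by limma), and 5 of the 10 alternatives kept this call. Slc25a10 and Slc25a11 share 228 and 189 exon bases with Gm11788 and Rnf167 on the other strand, and Slc25a21 shares 189 with Pax9. Slc25a33 shares 281 with Gm13068, and Slc25a25 shares 379 with Naif1. The libraries were stranded, but the sources used here do not say whether counting used the strand.

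The aspartate/glutamate carriers of the same shuttle, whose genes are closely related, moved apart. Slc25a13 (citrin), the abundant liver form, was higher in HFD by 0.13 on the log2 scale (SE 0.032, limma adjusted p 0.00152), with medians of 8.13 in HFD (7.67 to 8.50) and 7.97 in LFD (7.43 to 8.66). Without the marker-rich libraries its difference was 0.10 and missed the threshold (adjusted p 0.0585). Slc25a12 (aralar), present at 3.05 ± 0.501 CPM per kb against 70.7 for citrin, was lower, with a difference of -0.15 (SE 0.033, adjusted p 0.000374 by limma), and lower in 16 of 18 matched pairs. The ranges of both diets overlapped for both genes. The glutamate carrier Slc25a22 rose by 0.17 (limma adjusted p 0.0323).

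In the branch that resembles the carnitine carrier, Slc25a47 was the 1 carrier of 4 that passed, and had the largest increase in the family. Its values had a median of 9.33 log2 CPM in HFD (8.08 to 10.10) and 8.94 in LFD (7.66 to 10.11), so that the ranges overlapped almost in full. HFD was higher in 14 of 18 matched pairs, with a log2 difference of 0.35 (SE 0.081, limma adjusted p 0.00059) and a fold of 1.27. Slc25a48 had medians of 4.06 in HFD (3.09 to 4.73) and 3.96 in LFD (3.08 to 4.67), and its difference of 0.09 (95% interval -0.01 to 0.20, limma adjusted p 0.197) did not pass. The differences of Slc25a45 (0.10, adjusted p 0.124) and Slc25a29 (0.05, adjusted p 0.646) did not pass in limma either.

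Of the carriers of cofactors and nucleotides 3 of 7 rose: Slc25a42, a coenzyme A carrier (0.19, limma adjusted p 0.00175), Slc25a33, a pyrimidine nucleotide carrier (0.16, adjusted p 0.0471), and Slc25a16, related to the coenzyme A carriers (0.08, adjusted p 0.0175). Slc25a51, which brings NAD+ into mitochondria, had a difference of 0.16 that missed the threshold by a small margin (limma adjusted p 0.0516). It passed in 4 alternatives, among them limma-voom on recovered reads (0.17, adjusted p 0.0370) and the fit without the marker-rich libraries (0.20, adjusted p 0.0334). The orphan carrier Slc25a34 had medians of 2.81 log2 CPM in HFD (1.69 to 3.81) and 2.53 in LFD (1.39 to 3.62), with wide overlap. The orphan carriers Slc25a34 (0.28, SE 0.070, limma adjusted p 0.00114) and Slc25a35 (0.24, SE 0.062, adjusted p 0.00155) rose. Slc25a35 shares 1151 exon bases with Rangrf on the other strand, so that reads of the pair cannot be told apart if strand was not used.

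Among the other amino acid and glutathione carriers 1 of 6 passed, Slc25a44, which takes up branched-chain amino acids (-0.15, limma adjusted p 0.0345). The phosphate carrier Slc25a3 fell, with a difference of -0.07 (SE 0.017, adjusted p 0.00112 by limma), in 15 of 18 matched pairs. Neither ADP/ATP translocase passed: Slc25a5, which has a transcribed pseudogene (Slc25a5-ps) that could share its reads, had a difference of 0.0025 (95% interval -0.04 to 0.05). The 3 ATP-Mg/phosphate carriers Slc25a23, Slc25a24 and Slc25a25, the peroxisomal Slc25a17, both iron carriers (Slc25a28 and Slc25a37) and the 3 carriers that resemble uncoupling proteins (Slc25a14, Slc25a27 and Slc25a30) did not pass. Of these, Slc25a25 had the largest difference, 0.22 (95% interval 0.02 to 0.43, limma adjusted p 0.105).

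**Figure D2:**
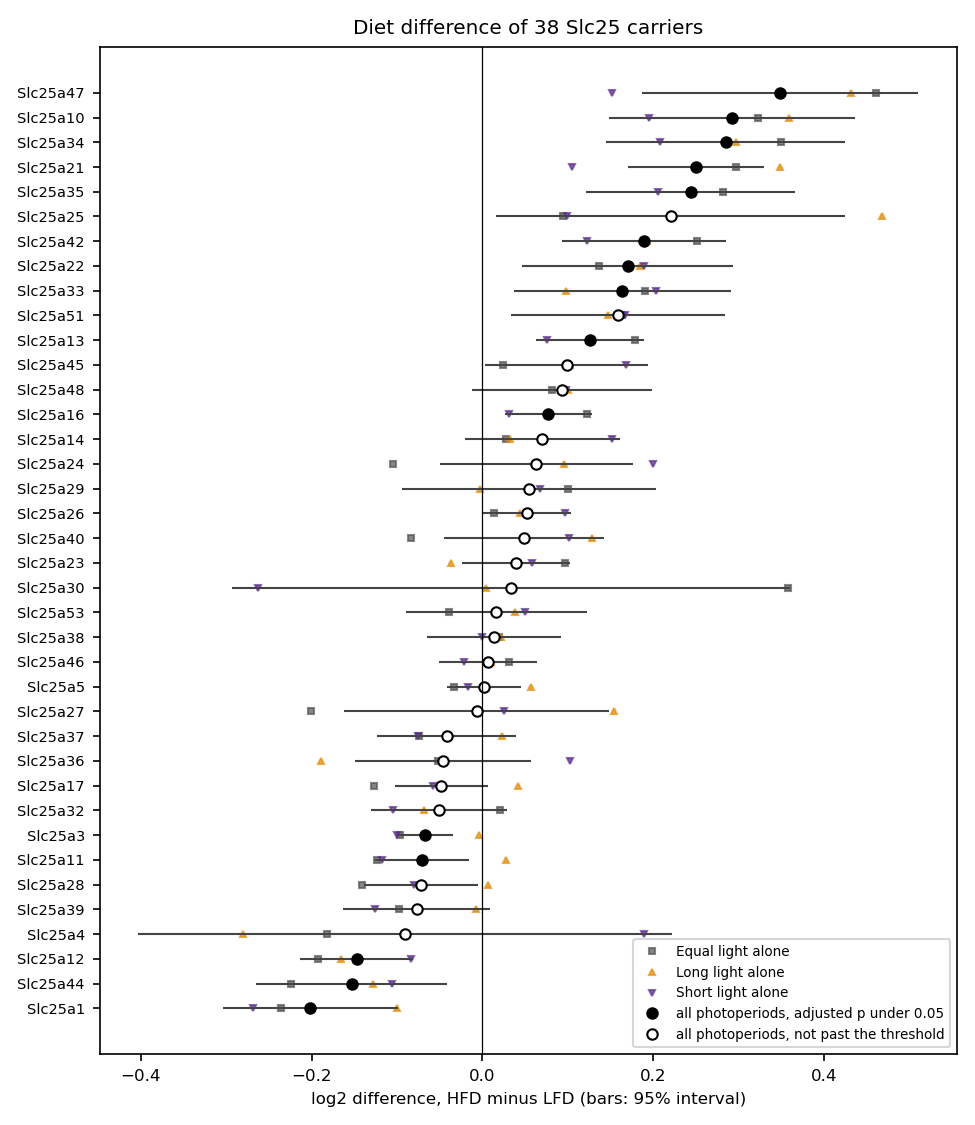
Log2 difference HFD minus LFD of 38 carriers over all photoperiods, with its 95% interval (circles, filled where the limma adjusted p was under 0.05) and within each photoperiod (small symbols). Slc25a47 (0.35), Slc25a10 (0.29) and Slc25a34 (0.28) stand at the top and Slc25a1 (-0.20) at the bottom, and Slc25a48 (0.09) has an interval that includes 0.

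Slc25a4, the ADP/ATP translocase of heart and skeletal muscle, followed the muscle markers. Its level had a median of 5.35 log2 CPM (4.72 to 6.37) in the 8 libraries rich in muscle markers and 2.74 (1.98 to 4.57) in all others, and the 2 sets did not overlap. Over all libraries its level correlated with the mean of the 12 muscle markers with Pearson's r 0.863 and Spearman's rho 0.843 (permutation p 1e-05 for both, the smallest that 100000 permutations can give, and 2e-05 adjusted over 2 relations). Without the 2 libraries whose muscle marker mean lay farthest from its median r was 0.860, and within the libraries not rich in muscle markers 0.836. Its diet difference was -0.09 over all libraries and 0.15 without the marker-rich ones, and neither passed in limma (adjusted p 0.726 and 0.413). Slc25a37 (mitoferrin), the iron carrier of red cell precursors, had r 0.079 and rho 0.047 with the 5 erythroid markers (permutation p 0.383 and 0.610).

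Within single photoperiods fewer carriers passed the diet test. In Equal light 5 did (limma), where 6.85% of all genes passed, 3.5% higher and 3.35% lower. Slc25a21 (0.30), Slc25a13 (0.18) and Slc25a47 (0.46) were higher, and Slc25a12 (-0.19) and Slc25a3 (-0.10) lower. This split depended on the scaling: limma-voom gave 2 higher and 5 lower, and libraries shifted to a common median gave 5 higher and 1 lower. Without replicate 1, 2, 3 or 4 the Equal light count was 1, 2, 3 and 1, where 1.39%, 3.01%, 5.41% and 4.29% of all genes passed. Over all genes it was 504 higher and 482 lower, and 341 and 617 with limma-voom. In Long light only Slc25a21 passed (0.35, adjusted p 0.000515 by limma, where 4.86% of all genes passed, 3.22% higher and 1.64% lower), and in Short light Slc25a1 (-0.27) and Slc25a3 (-0.10), where 6.88% did, 3.74% higher and 3.14% lower (with limma-voom 817 genes higher and 260 lower, and 0 carriers). The Short light count was 0 without replicate 1, 3 or 4 and without the marker-rich libraries, and the Long light count was 0 without the marker-rich libraries. The difference between photoperiods itself passed for 0 carriers and 0% of all genes in limma, with 4 carriers at an unadjusted p under 0.05 (Slc25a3, Slc25a11, Slc25a17 and Slc25a21), where 3.35% of all genes were, and limma-voom also called 0. Diet effects were therefore not shown to differ between photoperiods.

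Averaged over the day and both diets, no carrier passed the test between photoperiods. Limma called 0 carriers in each of the 3 contrasts, and limma-voom likewise. Of all genes it called 0% for Long against Short light, 0.0278% for Long against Equal light (0.00695% higher, 0.0208% lower) and 0.00695% for Short against Equal light. At an unadjusted p under 0.05 there were 2, 12 and 10 carriers of 39, in the same order, where 2.79%, 14.6% and 16.6% of all genes were.

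Daily rhythms were common in the family. A cosine of 24 h was fitted in each arm, and the amplitude is its height above the mean in log2 CPM. In LFD, 15 carriers were rhythmic in Equal light, 14 in Long and 18 in Short light (limma adjusted p under 0.05), where 20.9%, 23.6% and 27.1% of all genes were. In HFD the counts were 8, 15 and 10, where 16.5%, 21.8% and 14.1% of all genes passed. Without the marker-rich libraries the counts were 2, 6 and 18 in LFD, where 9.17%, 11.4% and 22.5% of all genes passed, and 8, 14 and 7 in HFD, where 16.5%, 17.8% and 10.7% did. Without replicate 3 the LFD Equal light count was 1 (8.45% of all genes), so that the first 2 LFD counts depend on which libraries enter. Leaving out replicate 1 gave 3, 9 and 7 in LFD (7.37%, 12.5% and 11.3% of all genes) and 6 in HFD Long light (12.2%). Leaving out replicate 2 gave 5 in HFD Equal light (14.7%), and leaving out replicate 3 gave 6 in HFD Long (7.82%) and 4 in HFD Short light (5.92%). With 6 time means in place of the cosine, LFD Equal light had 8 (15.9% of all genes) and HFD Long light 7 (11.8%).

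Of the 39 carriers, 28 were rhythmic in at least 1 arm (51.5% of all genes were), 16 in at least 3 arms (18.6%) and 1 in all 6 (4.11%), while 11 were rhythmic in none. The median over carriers of the median amplitude was 0.20, against 0.15 over all genes tested. Both take in arms without a called rhythm, and a fitted amplitude cannot be negative and grows with the spread between libraries. The 11 were Slc25a4, Slc25a10, Slc25a14, Slc25a16, Slc25a24, Slc25a25, Slc25a27, Slc25a30, Slc25a36, Slc25a38 and Slc25a45. Slc25a10 and Slc25a16 thus passed the diet test with no called rhythm.

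The carrier rhythmic in all 6 arms was Slc25a11 (ENSMUSG00000014606, chr11:70644196-70647479, minus strand). In LFD Equal light its 3 libraries at ZT0 were at 6.32, 6.14 and 5.64 log2 CPM, its 4 at ZT12 at 6.53, 6.74, 6.69 and 6.30, and its 3 at ZT20 at 6.15, 5.95 and 6.05. In HFD Short light the 4 libraries at ZT8 were at 6.67, 6.59, 6.56 and 6.56, and the 3 at ZT16 at 6.15, 6.04 and 6.11. The libraries at ZT8 were all above those at ZT16 in that arm, while ZT0 and ZT12 of LFD Equal light overlapped. Its amplitude lay between 0.24 and 0.29 in every arm, with limma adjusted p from 2.08e-05 in LFD Equal light to 0.000173 in LFD Short light. The trough-to-peak folds were 1.396 to 1.494. Fitted peaks in LFD were at 10.5 h in Equal light, 14.1 h in Long and 8.60 h in Short light, and in HFD at 8.41 h, 14.1 h and 6.96 h.

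Slc25a32, a carrier of folate and flavin nucleotides, was rhythmic in 5 arms and had the smallest adjusted p for a difference in rhythm between photoperiods (limma, 8.83e-11). In LFD Short light its 3 libraries at ZT8 were at 5.88, 5.75 and 5.90 log2 CPM and its 4 at ZT12 at 4.63, 4.69, 4.58 and 4.65, with no overlap and a drop within 4 h. In LFD Long light the 4 libraries at ZT4 were at 4.56, 4.69, 4.59 and 4.56 and the 4 at ZT16 at 5.44, 4.81, 5.78 and 5.79, again without overlap. Amplitudes in the 5 called arms were 0.31 to 0.45. Fitted peaks in LFD were at 11.2 h in Equal, 15.4 h in Long and 4.97 h in Short light. In LFD Short light the fitted peak came before ZT8, where the highest library of that arm lay. Time means gave a smaller limma adjusted p there (2.73e-07) than the cosine (0.00016). The fitted peak of that arm, and shifts taken from it, are therefore approximate.

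**Figure D3:**
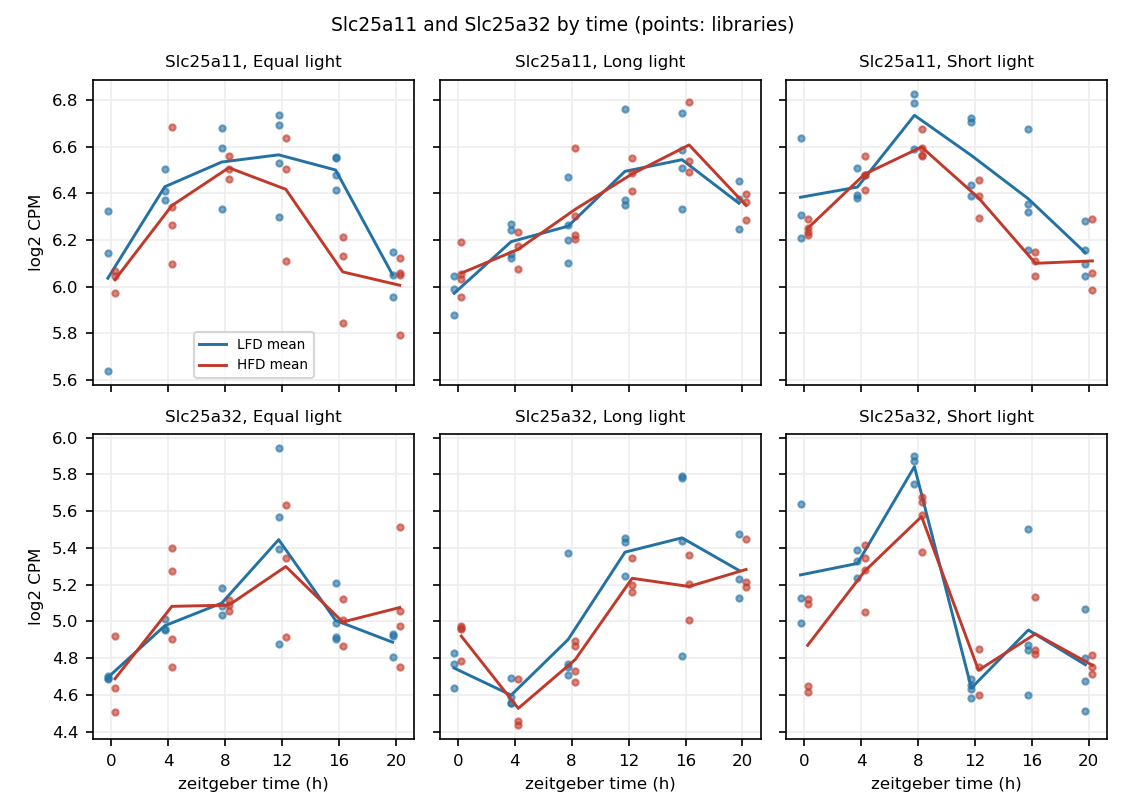
Log2 CPM of Slc25a11 (top) and Slc25a32 (bottom) by zeitgeber time in the 3 photoperiods, with 1 point per library and lines through the group means of LFD (blue) and HFD (red). In the arms where a rhythm was called, the fitted peaks of both lie earliest in Short light and latest in Long light.

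By median amplitude over the arms, called or not, the strongest of the 16 carriers rhythmic in at least 3 arms was Slc25a29 (0.39). This carrier of basic amino acids had a median of only 51 reads. It was followed by Slc25a34 (0.38), the NAD+ carrier Slc25a51 (0.36), Slc25a32 (0.35), Slc25a40 (0.35), a relative of the glutathione carrier Slc25a39, the iron carrier Slc25a37 (0.31), Slc25a53 (0.28) and Slc25a11 (0.26). The largest single amplitude among them was that of Slc25a51 in HFD Short light, 0.59 (SE 0.11, limma adjusted p 8.98e-05), a fold of 2.27 from trough to peak. Slc25a29 passed in all 3 HFD arms (0.51, 0.45 and 0.51 in Equal, Long and Short light) and in no LFD arm (0.28, 0.33 and 0.25). Its rhythm was not shown to differ between diets (limma unadjusted p 0.425). Slc25a47 passed in LFD Long (0.53, adjusted p 0.00619) and LFD Short light (0.63, adjusted p 0.000644), and in no HFD arm (0.20 to 0.36), with an unadjusted p of 0.0540 for the diet difference.

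The ADP/ATP and phosphate carriers, both abundant, had small amplitudes. Slc25a5 and Slc25a3 were each rhythmic in all arms but HFD Equal light, with amplitudes in the called arms of 0.15 to 0.20 and 0.10 to 0.13. The aspartate/glutamate carrier Slc25a12 passed in 4 arms (0.20 to 0.24) and Slc25a13 in 3 (0.20 to 0.31). The citrate carrier Slc25a1 passed in 3, with its largest amplitude in HFD Equal light (0.36, limma adjusted p 0.00399).

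Peak times moved with photoperiod. Rhythms differed between photoperiods for 23 of the 39 carriers (limma adjusted p under 0.05), where 40.2% of all genes passed, for 17 without the marker-rich libraries and for 15 without replicate 3. Of the carriers rhythmic in both arms compared, 8 of 8 peaked later in Long than in Equal light in LFD, by a median of 3.60 h (1.45 to 4.42), and 4 of 4 in HFD, by 5.76 h (4.55 to 6.69). All genes rhythmic in both arms gave medians of 4.41 h and 4.40 h. In Short light 8 of 10 peaked earlier than in Equal light in LFD, by a median of 2.19 h against 3.09 h for all genes, and 4 of 4 in HFD, by 3.65 h against 3.54 h. The 2 that peaked later were Slc25a23 (0.88 h) and Slc25a44 (1.39 h).

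Between Long and Short light the shift was 8.78 h in LFD, later in Long light for 10 of 10 carriers (3.52 to 11.8 h), and 7.28 h in HFD, later for 7 of 8, where all genes gave 7.99 h and 8.02 h. The exception in HFD was Slc25a29 (-10.9 h), close to the 12 h at which later and earlier meet. In LFD the shifts of Slc25a34 (11.8 h) and Slc25a53 (11.7 h) lay closer still to 12 h, so that their direction is no firmer. The comparisons with Equal light share its arms. As the event that defines zeitgeber time is not stated, part of a shift can come from that choice, and this cannot be told apart here. Between diets, 5 of 5 carriers called in both Equal light arms peaked earlier in HFD (median -2.13 h, -0.48 h for all genes), 6 of 7 in Short light (-1.73 h, -1.15 h for all genes) and 5 of 11 in Long light (0.0089 h, -0.58 h for all genes).

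**Figure D4:**
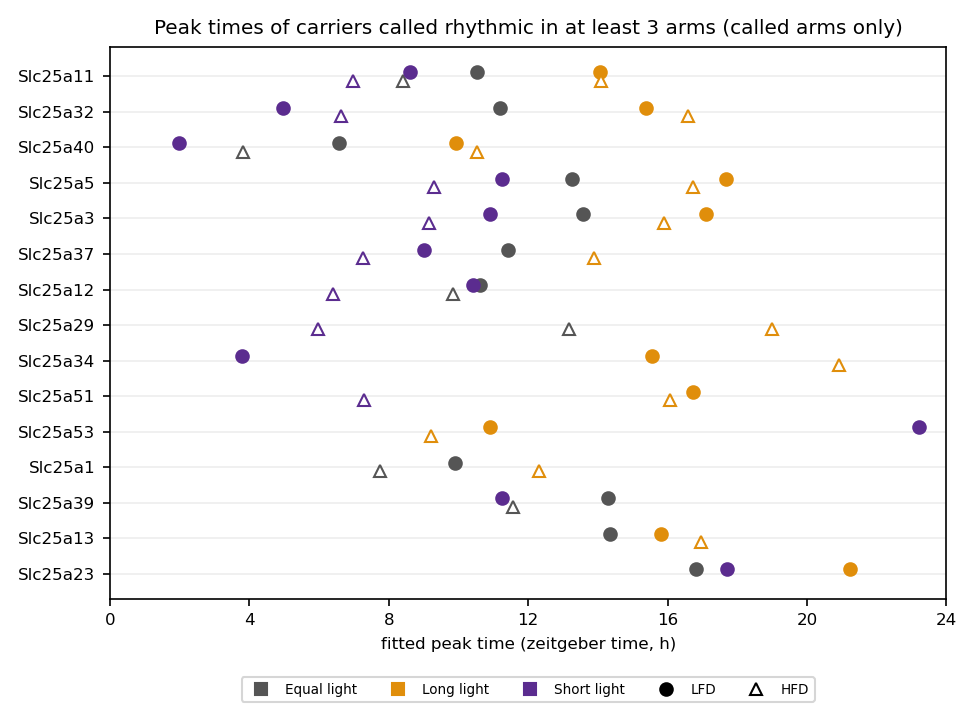
Fitted peak time, in zeitgeber hours, of 15 carriers rhythmic in at least 3 arms, shown for the arms in which the rhythm was called. Colours give the photoperiod, filled circles LFD and open triangles HFD. For Slc25a11 and Slc25a32 in LFD, Short light (purple) lies left of Equal light (grey) and Long light (orange) right of it, while for Slc25a23 Short light lies right of Equal light.

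Slc25a48 was called rhythmic in 2 arms, both of HFD. In HFD Equal light its libraries were at 3.83, 3.93 and 3.85 log2 CPM at ZT0, at 4.72, 4.25 and 4.20 at ZT8, at 4.03, 4.46 and 4.73 at ZT12, and at 3.25, 3.68, 3.09 and 3.83 at ZT20. All libraries at ZT8 and ZT12 were above all at ZT0 and ZT20. The amplitude was 0.48 (SE 0.090, limma adjusted p 0.000189), a fold of 1.95 from trough to peak, with the peak at 8.13 h. This call held in each of the 10 alternatives (amplitudes of 0.41 to 0.57). Slc25a48 was singled out with its daily pattern known, so that the p-values of its rhythms describe that pattern and are no independent support.

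In HFD Short light the libraries of Slc25a48 were at 4.35, 4.40, 4.52 and 4.38 log2 CPM at ZT4 and at 3.88, 3.23 and 4.00 at ZT12, with no overlap, and at ZT0 they spread from 3.39 to 4.58. The amplitude was 0.30 (SE 0.090, limma adjusted p 0.0356) with the peak at 4.26 h, and it missed the threshold without the marker-rich libraries (adjusted p 0.0818), without any 1 of the replicates (0.0623 to 0.187) and with time means (0.0983). In HFD Long light the amplitude of 0.23 did not pass (limma adjusted p 0.131). In LFD the amplitudes were 0.17, 0.17 and 0.22 in Equal, Long and Short light, with limma adjusted p of 0.341, 0.263 and 0.127. The fitted peaks of these uncalled LFD curves were at 14.6 h, 17.2 h and 19.8 h.

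**Figure D5:**
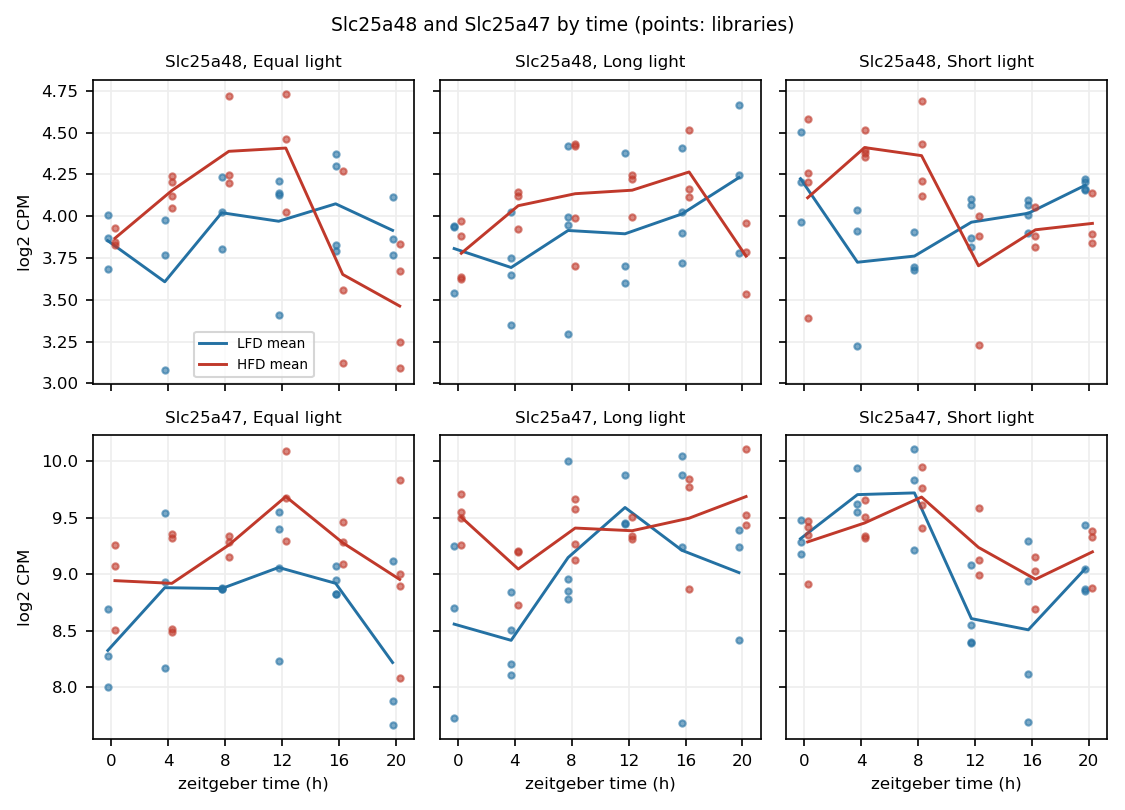
Log2 CPM of Slc25a48 (top) and Slc25a47 (bottom) by zeitgeber time in the 3 photoperiods, with 1 point per library and lines through the group means of LFD (blue) and HFD (red). For Slc25a48 the HFD line stands above the LFD line at ZT4 and ZT8 in every photoperiod and falls below it by ZT20.

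The HFD and LFD curves of Slc25a48 crossed, which an average over the day does not show. At ZT4 and ZT8 the HFD group mean was above the LFD one in all 3 photoperiods, by 4.15 against 3.61 at ZT4 in Equal light, 4.06 against 3.69 in Long light and 4.41 against 3.72 in Short light. At ZT20 it was below in all 3, 3.46 against 3.92, 3.76 against 4.23 and 3.96 against 4.19. Of the 18 matched pairs HFD was higher in 10. The p for a difference in rhythm between diets was 2.04e-05 before adjustment, the smallest of all 14397 genes, and 0.218 after adjustment in limma, so that it did not pass. It ranged from 0.0936 to 0.9999 after adjustment over the alternatives, and Slc25a48 was singled out with this rank known. The 5 other carriers at an unadjusted p under 0.05 were Slc25a23 (0.0030), Slc25a34 (0.0034), Slc25a35 (0.0114), Slc25a37 (0.0252) and Slc25a22 (0.0464). No carrier and 0% of all genes passed after adjustment with limma, and limma-voom called 0, while 654 of the 14397 genes (4.54%) had an unadjusted p under 0.05. Between photoperiods the rhythm of Slc25a48 passed (limma adjusted p 0.0184), but not without replicate 1 (0.112) or replicate 3 (0.520).

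Slc25a48 was compared with the 3 relatives of its branch by the log2 difference between both genes in each library. Its diet difference did not pass a test against that of Slc25a45 (-0.01, permutation p 0.940 adjusted over 3 pairs) and Slc25a29 (0.04, adjusted permutation p 0.940), and these p-values do not show that the genes act alike. Against Slc25a47 it was -0.26, a smaller increase for Slc25a48, with a permutation p of 0.0193 and 0.0580 after adjustment. Without the marker-rich libraries the difference of that pair was -0.37. It passed without replicate 1 (-0.39, adjusted permutation p 0.0078). It did not pass without replicate 2 (-0.17, adjusted permutation p 0.441), replicate 3 (-0.20, 0.448) or replicate 4 (-0.26, 0.110). Nor did it without the 2 libraries farthest from their group (-0.26, adjusted permutation p 0.0591). No test of its daily pattern against theirs is given, because Slc25a48 was singled out with that pattern known.

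The pattern of Slc25a48 over the 36 group means was set beside that of other genes. The 5 genes with the highest Pearson's r among 9679 that averaged 2 log2 CPM or more were Nudcd3 (0.756), Plekha7 (0.712), Abhd12 (0.701), Psmf1 (0.686) and Zdhhc3 (0.671). Among the other carriers above that level r ran from -0.20 for Slc25a44 to 0.49 for Slc25a10, with 0.25 for Slc25a47 and 0.18 for Slc25a45. These values describe 36 means that share libraries, and nothing of function is read from them.

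Genes around the carriers were also compared between diets, where 25.5% of all genes tested passed, 12.9% higher and 12.6% lower. Of 15 tested genes of the import machinery that inserts carriers into the inner membrane, limma called Timm29 higher (0.08, adjusted p 0.00605) and Tomm22 lower (-0.05, adjusted p 0.0263), with a median log2 difference of -0.0056. Of 15 other genes of mitochondrial transport, 5 were higher and 3 lower. Mpc1, a subunit of the pyruvate carrier (0.22, limma adjusted p 5.46e-07), Letm1 (0.17), Ucp2 (0.19), Sfxn5 and Sfxn2 were higher, and the outer membrane channels Vdac1 (-0.12, limma adjusted p 2.52e-05) and Vdac2 and the insertase Mtch2 were lower. Of 12 genes that act on carrier substrates, all enzymes except the monocarboxylate transporter Slc16a1, Got2 (0.08) and Gpd1 (0.20) were higher, and Me1 (-0.91, limma adjusted p 6.11e-05) and Acly (-0.60, adjusted p 0.00899), which turns the citrate exported by Slc25a1 into acetyl-CoA, were lower.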

How the data were processed

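Per the labels' protocols, poly-A RNA of mouse liver was made into stranded libraries and read in pairs. The submitters' processing notes name STAR, featureCounts, Subread 1.6.2 and mm10 (GRCm38). Options, annotation and normalization are not given in the sources used here. In the deposited table values are log2 CPM of 15398 genes, whose lowest value (-3.61, or 0.0818 CPM) is the same in every library. Taking it as a prior of 2 reads, 100% of values under 1000 reads came out whole within 0.05 read, which gave depths of 13.97 M to 39.09 M (median 24.06 M). Such a floor under every value shrinks log2 differences of weak genes.

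The 14397 genes that reached 1 CPM in 3 or more libraries were fitted, on the deposited log2 scale, with limma 3.58.1 (trend, R 4.3.3): 1 mean per group for levels, and 1 mean, cosine and sine of 24 h per arm for rhythms. Benjamini-Hochberg adjustment ran across every gene fitted (threshold 0.05). On the recovered reads, limma-voom called 3521 genes between diets, against 3676. Its library size was the total of recovered reads. Deposited values did not follow that total alone: 1 read was worth 0.0378 CPM in 1 LFD Equal light library at ZT0 with 21.6 M reads. In 1 LFD Long light library at ZT20 with 26.75 M reads it was worth 0.0413 CPM. Slc25a48 was set against 3 relatives by permuting diet within photoperiod and time (100000 permutations, two-sided). Per-kilobase levels used the exon union of GENCODE mouse release 21. 1 carrier is counted in all totals but is not reported here by name or plotted. The scripts were tested on simulated data. Groups come from the sample titles. Replicate numbers follow accession order, which sorts the library numbers in the titles as text, and pair nothing. Leaving out a replicate number therefore does not remove a random library of each group. What the library number stands for is not stated.

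Named in full were Slc25a48, the called members with the largest diet differences in each direction (up to 8), the 8 largest median amplitudes among members rhythmic in at least 3 arms, the 6 highest and 3 lowest levels, and members called for a difference in rhythm. Slc25a4, Slc25a5, Slc25a25, Slc25a30 and Slc25a51 were described in more detail after their values were seen. The members, marker and gene lists were chosen with earlier results of these data known. Alternatives were limma-voom on recovered reads, no low-value filter, libraries shifted to the same median, leaving out marker-rich libraries, the 2 libraries farthest from their group or 1 replicate number, library number as a covariate, and time means in place of a cosine.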

Additional observations from a re-analysis of the deposited data

Results flagged for a closer look

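In groups of 4 libraries, 1 library stood far from the other 3 in 4 of the 60 combinations of carrier and group checked, where chance gives about 1 in 20. Slc25a48 was at 3.41 log2 CPM in 1 library of LFD Equal light at ZT12, below the 3 others at 4.12 to 4.21. Slc25a47 was at 10 in 1 library of LFD Long light at ZT8, above the others at 8.78 to 8.96. Slc25a30 was at 3.54 in 1 library of LFD Long light at ZT4, where the nearest was at 4.25, and at 6.60 in 1 library of HFD Long light at ZT8, where the nearest was at 4.38.

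The daily rhythm differed between photoperiods for 23 carriers by limma's test of the difference itself, of which 22 are listed. The adjusted p was 8.83e-11 for Slc25a32, 4.15e-08 for Slc25a11, 2.16e-06 for Slc25a51, 2.59e-06 for Slc25a37 and 3.89e-06 for Slc25a40. It was 1.4e-05 for Slc25a53, 1.65e-05 for Slc25a47, 1.91e-05 for Slc25a34, 2.76e-05 for Slc25a5, 2.99e-05 for Slc25a12 and 3.84e-05 for Slc25a29. It was 0.000132 for Slc25a13, 0.000791 for Slc25a3, 0.00416 for Slc25a21, 0.00816 for Slc25a39 and 0.0132 for Slc25a16. The largest adjusted p-values in limma were 0.0166 for Slc25a35, 0.0183 for Slc25a42, 0.0184 for Slc25a48, 0.0224 for Slc25a26, 0.0285 for Slc25a28 and 0.0361 for Slc25a30. Slc25a16 and Slc25a30 are among them although neither was called rhythmic in any single arm.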

How the results depend on the processing

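The count of 15 carriers between diets was 14 to 17 in the settings that keep every replicate number and 8 to 13 without 1 replicate number. In Equal light (5) it was 9 without the 2 farthest libraries and 1 to 3 without a replicate. In Long light (1) it was 2 with limma-voom, 0 without marker-rich libraries, and 3 without the farthest libraries or with library number as a covariate, and 1 without any replicate. In Short light (2) it was 0 with limma-voom and without marker-rich libraries, and 0 to 2 without a replicate. Rhythm counts without marker-rich libraries were 2 for LFD Equal and 6 for LFD Long light, and with time means 8 for LFD Equal and 7 for HFD Long light. Without a replicate LFD gave 1 to 16 (Equal), 9 to 12 (Long) and 7 to 17 (Short), HFD 5 to 8, 6 to 14 and 4 to 8, and 15 to 19 were called for the photoperiod difference. The sign turned for Slc25a4 (0.15 without marker-rich libraries, -0.22 to 0.0128 without a replicate) and Slc25a30 (-0.0197 to 0.0936 without a replicate), neither of which passed. The Slc25a48 diet difference against Slc25a45 ran from -0.0381 to 0.00718 without a replicate, that against Slc25a29 from -0.0461 to 0.0881 (-0.0689 without marker-rich libraries), and that against Slc25a47 from -0.39 to -0.17 (-0.37 without marker-rich libraries). The photoperiod difference in the rhythm of Slc25a48 lost its call without replicate 1 and without replicate 3. The causes were not tested. Leaving out marker-rich libraries left at least 1 library in each group, so that its spread is assumed to be that of the other groups. No paired analysis was possible because replicate numbers follow the order of accession and pair nothing.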

Other observations

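Slc25a30, a carrier that resembles the uncoupling proteins, had the widest spread in the family on the log2 scale, with an SD of 1.003 over all libraries and a range from 3.54 to 8.52 log2 CPM. Libraries of the same group differed almost as much (SD 0.92 within groups), it was called rhythmic in no arm, and its diet difference was 0.03 (limma adjusted p 0.916).

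After the group means were taken out, carriers varied together between libraries of the same group in some of the 741 pairs. The median Pearson's r was 0.06, 30 pairs were above 0.5 and 4 below -0.5, and 167 passed a Benjamini-Hochberg adjusted permutation test (10000 permutations). Pairs of other genes were not examined, so that these counts cannot be set against a share over all genes. The highest was Slc25a39 with Slc25a10 (r 0.716, rho 0.559, permutation p 0.0001 for both, the smallest possible, adjusted 0.0014 and 0.00176), and r was 0.606 without 2 libraries. In each pair these were the 2 in which the first carrier named lay farthest from its median, after the group means were taken out. Slc25a42 with Slc25a34 (r 0.660, rho 0.627) and Slc25a47 with Slc25a42 (r 0.636, rho 0.597) had the same permutation p and kept r of 0.616 and 0.593. The lowest was Slc25a30 with Slc25a37 (r -0.588, rho -0.560, same permutation p), at -0.548 without the 2 libraries chosen in that way. All values come from the same libraries and share depth and tissue makeup, whose part was not tested.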
